A study of Homo sapiens with 9 samples.

Results

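The endoplasmic reticulum (ER) chaperone and unfolded protein response genes are a set of 40 genes listed by symbol for the folding, quality control and disposal of secretory proteins. Their expression was measured in THP-1 cells, a human leukemia line of immature monocytic cells, on Illumina bead arrays. Of the 40 genes, 37 had a named probe, and 36 had a probe detected above the negative controls on at least 3 of the 9 arrays and were tested, out of 10919 genes tested in all. ERN1, HERPUD1 and SEC61G had no named probe here, and the probe of EIF2AK3 was detected on 2 arrays and was not tested. A total of 34 of the 36 tested genes were detected on all 9 arrays; the exceptions were PDIA3, on 4, and DERL3, on 6. The rule lists the genes by symbol, and the only measured value it uses is the detection of their probes on these arrays. The members, the other lists and the tests were nevertheless chosen with earlier results of these data known. Shares of members set against all genes are therefore a description.

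All 9 arrays carried RNA of unmodified THP-1 cells as far as the labels say, and the labels separate them by the state of the cells alone, named fresh, frozen or replated, with 3 arrays each. No treatment, freezing medium or time is given for any state, and the title of the series places the frozen state in stocks kept in liquid nitrogen. The design text calls the replicates biological without naming separate cultures, so p-values measure the spread between these samples. Everything rests on a single cell line.

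Proteins that enter the ER through the SEC61 channel are folded there by chaperones such as BiP, the product of HSPA5, and by enzymes that form disulfide bonds. When unfolded proteins accumulate, the sensors IRE1 (ERN1), ATF6 and PERK (EIF2AK3) start the unfolded protein response, which raises transcription of chaperone and degradation genes through ATF6 and the spliced form of XBP1. Both factors act, together with NF-Y, on a promoter sequence called the ER stress response element. Secretory and phagocytic cells, macrophages among them, depend on this machinery.

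The promoters of several members carry that element, and 8 stretches are printed because they let the response of the genes be read against a shared sequence. The search used RefSeq promoters of GRCh38.p14, from 250 bases before to 50 after each start site, on both strands, for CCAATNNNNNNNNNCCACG (the ER stress response element) and ATTGGNCCACG (element II). The promoter table held 37 of the 40 members. At least 1 of the 2 forms was present in 11 of these 37 members (29.7%), against 44 of all 27305 genes (0.161%). CALR, CANX, CRELD2, ERO1B, HSP90B1, HSPA5, PDIA6 and XBP1 held the first form, and HERPUD1, HYOU1 and SDF2L1 held element II. The core of another element of the pathway, TGACGTGG, lay in DNAJC10, HYOU1, SSR3 and VCP, that is in 10.8% of members against 0.927% of all genes. The flanking 5-letter stretches alone are common, with CCAAT in 39.7% and CCACG in 42.1% of all genes. A match is only a match of letters, and other spellings of the elements were not searched. In the stretches below, read along the gene's own strand, capitals mark the fixed letters of the elements in either orientation.

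HYOU1, chr11:119057264-119057400, minus strand, 195 to 59 bases before the start site, with 2 copies of element II: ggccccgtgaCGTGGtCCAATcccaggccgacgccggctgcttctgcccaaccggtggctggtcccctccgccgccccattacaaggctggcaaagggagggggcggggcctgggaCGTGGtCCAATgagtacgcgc
SDF2L1, chr22:21642104-21642134, plus strand, 198 to 168 bases before the start site, with 1 copy of element II: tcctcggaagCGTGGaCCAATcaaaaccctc
CRELD2, chr22:49918544-49918582, plus strand, 90 to 52 bases before the start site: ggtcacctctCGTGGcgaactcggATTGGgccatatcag
PDIA6, chr2:10812843-10812881, minus strand, 96 to 58 bases before the start site: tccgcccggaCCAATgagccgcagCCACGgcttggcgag
HSP90B1, chr12:103930206-103930349, plus strand, 204 to 61 bases before the start site, with 2 copies: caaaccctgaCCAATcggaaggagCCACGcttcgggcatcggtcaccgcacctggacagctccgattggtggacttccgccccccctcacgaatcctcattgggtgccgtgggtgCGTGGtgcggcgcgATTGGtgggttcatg
HSPA5, chr9:125241381-125241419, minus strand, 76 to 38 bases before the start site: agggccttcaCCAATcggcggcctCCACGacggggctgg
CALR, chr19:12938374-12938412, plus strand, 235 to 197 bases before the start site: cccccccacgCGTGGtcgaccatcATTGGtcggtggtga
XBP1, chr22:28800593-28800631, minus strand, 62 to 24 bases before the start site: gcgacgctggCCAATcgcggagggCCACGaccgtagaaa

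In replated against fresh cells 3 of 8 chaperones, 2 of 4 J proteins, 1 of 7 isomerases and oxidases and 1 of 9 degradation genes were called lower, and no member was called higher. HYOU1, SDF2L1, CRELD2, DNAJB11, DNAJC3 and PDIA6 fell by 1.20- to 1.42-fold. DERL3 was called lower too, on a probe near background in replated cells that passed the detection filter mainly through the fresh arrays. With no filter DERL3 was not called, and 6 of 37 members were lower, where 292 of 48803 probes were lower. With the filter, 7 of the 36 tested members were lower and 0 higher, where 2.15% of all tested genes were called lower and 2.44% higher. The median log2 difference of the members was -0.12, and 31 of 36 lay below 0, against a median of -0.00 over all genes, of which 50.35% lay below 0. A call means an adjusted p under 0.05 in limma's moderated test after Benjamini-Hochberg adjustment over all 18102 probes tested; each gene is read by its brightest detected probe, ± on a difference is limma's standard error, and levels are normalized log2 signal. The count fell whichever of the compared arrays was left out. It was 2 without fresh replicate 1, 2 without fresh replicate 2 and 3 without fresh replicate 3. It was 3 without replated replicate 1, 2 without replated replicate 2 and 1 without replated replicate 3. Calls over all probes fell too, from 747 to 351, 276, 406, 318, 326 and 245 in the same order. The called members kept their direction in each of these fits.

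Between replated and frozen cells the called members were again mostly chaperones and J proteins. HSPA5, HSP90B1, HYOU1, SDF2L1, MANF, CRELD2, DNAJB11 and DNAJC3 fell and SEC63 rose, so that 8 of 36 members were called lower and 1 higher, against 5.50% and 6.60% of all tested genes. The median over members was -0.08, with 26 of 36 below 0. Over all genes the median was -0.00, with 50.97% below 0. Centring each array on the median of all probes raised the median of all genes here to 0.09 and that of the members to 0.00, with 16 of 36 below 0, and left HYOU1, SDF2L1, CRELD2, HSP90B1 and HSPA5 without a call; centring on the kept probes gave medians of -0.04 and -0.13, with 28 of 36 members below 0. Between frozen and fresh cells 0 of 36 members were called by limma, against 0.467% of all genes called higher and 0.485% called lower. At an unadjusted p under 0.05, 3 of the 36 members lay higher and 7 lower. Of all 10919 genes, 871 lay higher and 985 lower at that threshold. The members ranged from -0.70 to 0.22. Below 0 lay 23 of 36 there, against 48.51% of all genes. With arrays centred on all probes it was 29 of 36, where the median of all genes was -0.11. With arrays centred on the probes kept for the test it was 17 of 36, where that median was 0.04. Among the 3 states together, 10 members were called by the moderated F test, against 10.1% of all genes. Each state enters 2 of the 3 comparisons, so their counts are not independent. In bulk RNA, fewer transcripts per cell and fewer cells of a kind cannot be told apart.

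**Figure D1:**
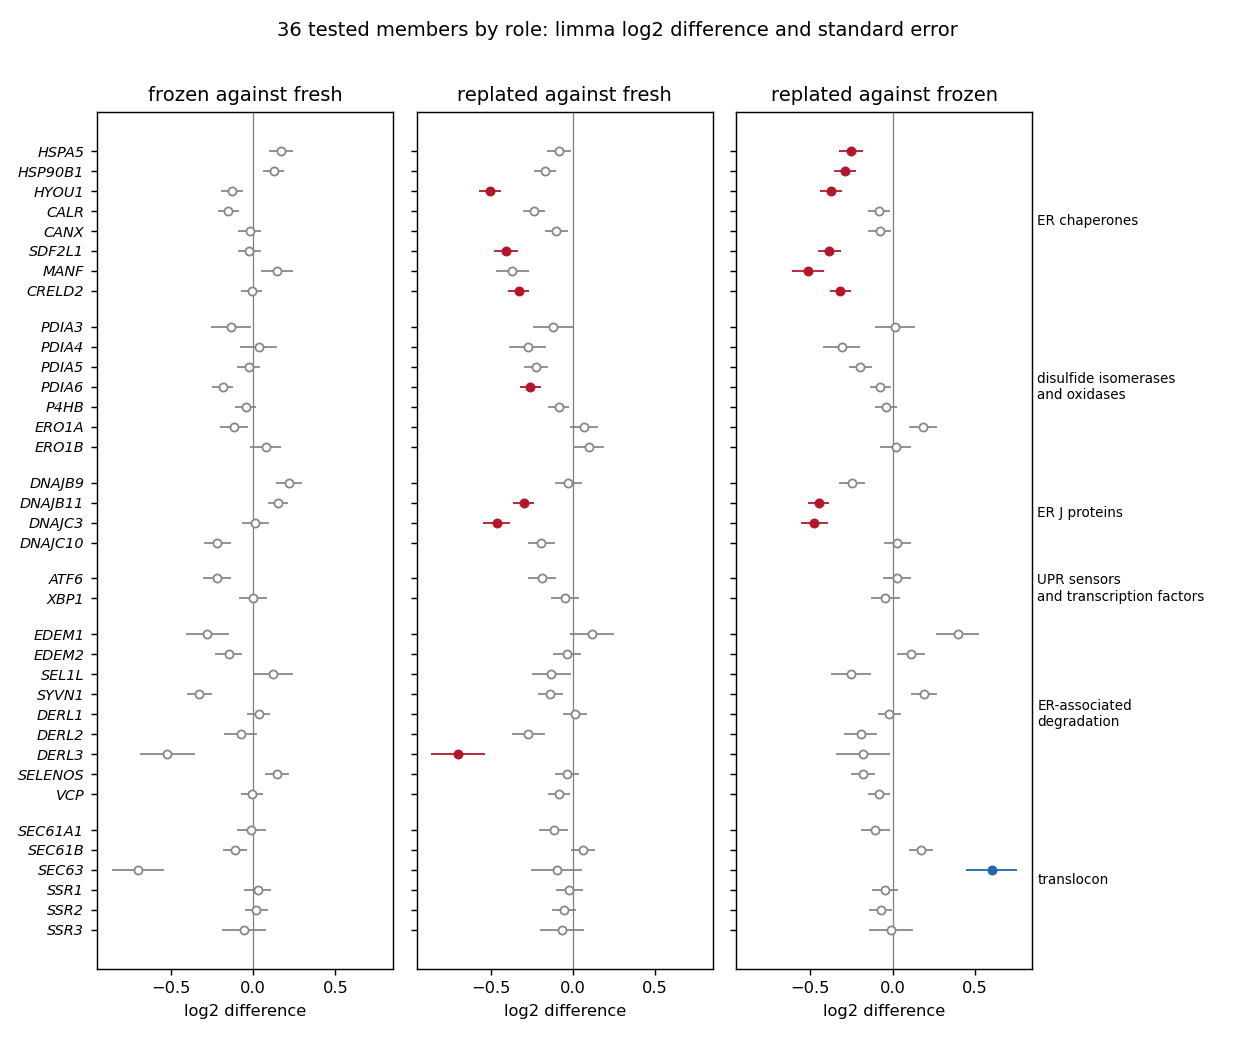
Log2 difference of each of the 36 tested members in the 3 comparisons, with limma's standard error as a bar, grouped by role; filled red points were called lower, filled blue points higher and open points were not called. Filled points lie mainly among ER chaperones and J proteins in the 2 comparisons that involve replated cells, and the frozen against fresh panel has none.

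Among the 8 ER chaperones, 3 fell in replated against fresh cells, 6 fell against frozen cells and 0 were called between frozen and fresh cells. Of all tested genes, 2.15% were called lower and 2.44% higher in replated against fresh cells. Against frozen cells it was 5.50% and 6.60%. These shares also stand beside the counts of the other roles below. HYOU1, an HSP70-related chaperone that also acts as exchange factor for BiP, measured 9.32, 9.37 and 9.37 on the fresh arrays, 9.25, 9.22 and 9.19 on the frozen arrays and 8.88, 8.91 and 8.75 on the replated arrays. The replated arrays lay below all others, and the frozen arrays below the fresh ones. HYOU1 fell 1.42-fold from fresh to replated cells (-0.50 ± 0.0674, adjusted p = 0.00383) and 1.30-fold from frozen to replated cells (-0.37, adjusted p = 0.00738). Its difference between frozen and fresh cells was -0.13 (adjusted p = 0.359).

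SDF2L1, which keeps BiP substrates from aggregating with ER J proteins, measured 12.37, 12.47 and 12.47 in fresh, 12.36, 12.38 and 12.50 in frozen and 12.10, 12.01 and 11.98 in replated cells. Fresh and frozen arrays overlapped and the replated arrays were apart from both. It fell 1.33-fold against fresh (-0.41 ± 0.0711, adjusted p = 0.0132) and 1.31-fold against frozen cells (-0.38, adjusted p = 0.00819). CRELD2, an ER-resident protein with isomerase activity, gave 11.30, 11.26 and 11.35 in fresh, 11.31, 11.30 and 11.27 in frozen and 10.91, 11.0006 and 11.01 in replated cells. Here too the replated arrays stood apart, by -0.33 ± 0.0637 from fresh (adjusted p = 0.0207) and -0.32 from frozen arrays (adjusted p = 0.0115). The fall of SDF2L1 against fresh cells was not called without fresh replicate 2 or replated replicate 3. That of CRELD2 was not called when any 1 of the 6 arrays compared was left out. A replicate block or median centring over all probes also left it without a call.

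MANF, a secreted and ER-retained factor that stabilizes BiP with its clients, was 12.10, 11.95 and 12.32 in fresh, 12.16, 12.30 and 12.35 in frozen and 11.84, 11.73 and 11.70 in replated cells. Its fresh arrays spread over the widest range of the chaperones, with an SD of 0.19 (n = 3). It fell 1.43-fold from frozen to replated cells (-0.51 ± 0.0985, adjusted p = 0.00961), and its difference from fresh cells, -0.37, did not pass (adjusted p = 0.0653) although the arrays did not overlap. HSP90B1, the ER form of HSP90 known as GRP94, was 13.74, 13.79 and 13.80 in fresh, 13.94, 13.90 and 13.86 in frozen and 13.68, 13.53 and 13.61 in replated cells. The 3 states did not overlap, with frozen arrays on top. HSP90B1 fell 1.22-fold from frozen to replated cells (-0.29 ± 0.0663, adjusted p = 0.0199), a call not made without frozen replicate 1, frozen replicate 2, replated replicate 2 or replated replicate 3, and differed by -0.17 between replated and fresh cells (adjusted p = 0.194).

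HSPA5, the gene of BiP, was 9.35, 9.54 and 9.34 in fresh, 9.61, 9.57 and 9.55 in frozen and 9.32, 9.28 and 9.37 in replated cells. Replated arrays overlapped the fresh ones and lay below all frozen ones. The fall of 1.19-fold from frozen to replated cells passed narrowly (-0.25 ± 0.0732, adjusted p = 0.0487). It was not called when any 1 of the 6 arrays compared, fresh replicate 1 or fresh replicate 3 was left out. Nor was it called with no filter, the authors' processed values, a replicate block (adjusted p = 0.0808) or median centring over all probes (adjusted p = 0.337). Between replated and fresh cells HSPA5 differed by -0.09 (adjusted p = 0.565). CALR, the lectin chaperone calreticulin, was 10.56, 10.60 and 10.62 in fresh, 10.39, 10.42 and 10.51 in frozen and 10.42, 10.34 and 10.32 in replated cells. Its fresh arrays lay above all others, and its difference of -0.24 between replated and fresh cells did not pass (adjusted p = 0.0762). CANX, the membrane-bound lectin chaperone calnexin, differed by -0.02 in frozen and -0.10 in replated cells from fresh cells, and was not called.

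**Figure D2:**
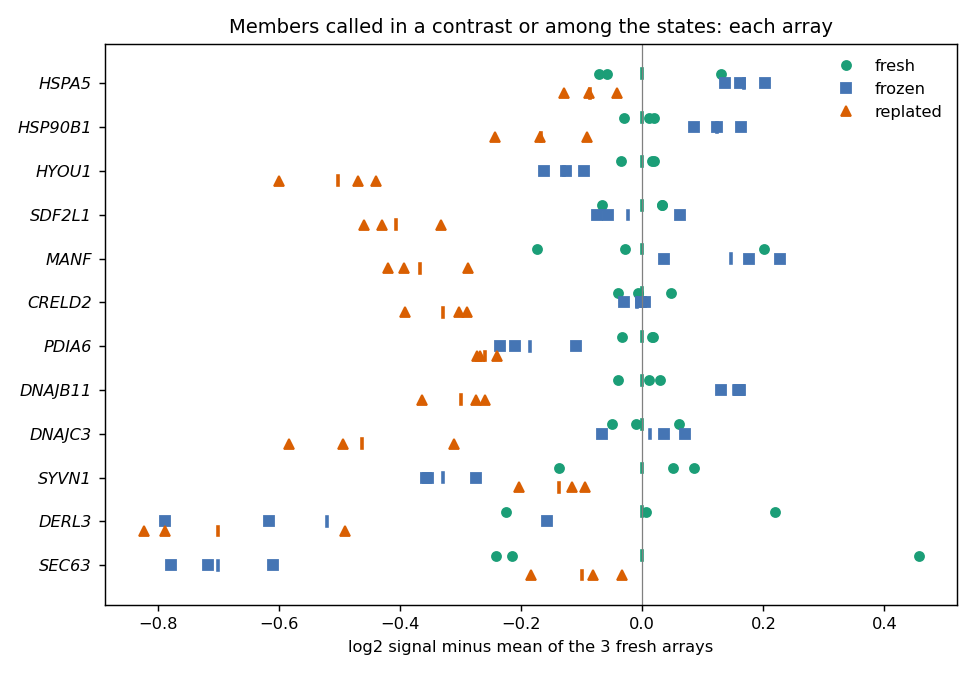
Normalized log2 signal of each array minus the mean of the 3 fresh arrays, for the 12 members called in a comparison or among the 3 states; circles are fresh, squares frozen and triangles replated arrays, and short vertical lines are means. Replated arrays of HSP90B1, HYOU1, SDF2L1, MANF, CRELD2, PDIA6, DNAJB11 and DNAJC3 lie to the left of all fresh and frozen arrays, those of PDIA6 narrowly. Frozen arrays of SYVN1 and SEC63 lie to the left of the rest.

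ER J proteins deliver clients to BiP and stimulate its ATPase. The 4 members grouped under this role split into a pair that fell in replated cells and a pair that was not called. SEC63, also a J protein, was grouped with the translocon instead and was higher in replated than in frozen cells. DNAJB11 was 12.33, 12.32 and 12.27 in fresh, 12.47, 12.47 and 12.44 in frozen and 12.05, 12.03 and 11.94 in replated cells. The states did not overlap. DNAJB11 fell 1.23-fold against fresh (-0.30 ± 0.0631, adjusted p = 0.0293) and 1.37-fold against frozen cells (-0.45, adjusted p = 0.00246). The former was not called when any 1 of the 6 arrays compared was left out. It was also not called with median centring over all probes, a replicate block or the 2 states fitted alone. The latter passed under each of 20 other settings. The difference of DNAJB11 between frozen and fresh cells, 0.15, did not pass (adjusted p = 0.258).

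DNAJC3, also known as P58IPK, measured 6.89, 6.78 and 6.82 in fresh, 6.86, 6.90 and 6.76 in frozen and 6.52, 6.24 and 6.33 in replated cells. Fresh and frozen arrays covered the same range and the replated ones lay below it. It fell 1.38-fold against fresh (-0.46 ± 0.0827, adjusted p = 0.0145) and 1.39-fold against frozen cells (-0.48, adjusted p = 0.00621), and the first of these was not called without fresh replicate 1, replated replicate 2 or replated replicate 3. DNAJB9, a target of spliced XBP1 that holds IRE1 inactive, differed by 0.22 between frozen and fresh, -0.03 between replated and fresh and -0.25 between replated and frozen cells, with adjusted p of 0.204, 0.893 and 0.0713. DNAJC10, a J protein with reductase activity, differed by -0.22, -0.19 and 0.03 in the same order and was not called.

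Of the 7 disulfide isomerases and oxidases, 1 fell in replated against fresh cells and none was called in the other comparisons. PDIA6, an isomerase that also binds IRE1, measured 10.50, 10.55 and 10.55 in fresh, 10.42, 10.30 and 10.32 in frozen and 10.27, 10.29 and 10.26 in replated cells. Its fresh arrays were above all others. It fell 1.20-fold against fresh cells (-0.26 ± 0.064, adjusted p = 0.049), and this was not called when any 1 of the 9 arrays was left out. Nor was it called with the authors' processed values, median centring over all probes, a replicate block or the 2 states fitted alone. Differences between replated and fresh cells were -0.28 for PDIA4, -0.22 for PDIA5, -0.12 for PDIA3 and -0.09 for P4HB, the classical protein disulfide isomerase. The oxidases that recharge these enzymes, ERO1A and ERO1B, differed by 0.07 and 0.10. Adjusted p of these 6 lay between 0.111 and 0.709.

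Transcripts of the pathway's own regulators showed small differences. XBP1, which encodes the transcription factor activated by IRE1-dependent splicing, was 11.29, 11.16 and 11.26 in fresh, 11.15, 11.23 and 11.32 in frozen and 11.03, 11.27 and 11.28 in replated cells. All 3 states overlapped, and the differences were -0.00 between frozen and fresh, -0.05 between replated and fresh and -0.04 between replated and frozen cells, with standard errors of 0.0861. These values do not tell the spliced from the unspliced form. ATF6 was 10.24, 10.09 and 10.16 in fresh, 10.07, 9.96 and 9.81 in frozen and 10.05, 9.87 and 9.9993 in replated cells. Its fresh arrays lay above the others, and neither the difference of -0.22 in frozen (adjusted p = 0.229) nor that of -0.19 in replated cells (adjusted p = 0.246) passed. EIF2AK3, detected on 1 fresh and 1 replated array, gave 4.88, 4.88 and 5.12 in fresh, 4.91, 4.76 and 4.84 in frozen and 5.38, 4.79 and 4.72 in replated cells, near background.

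The 9 tested genes of ER-associated degradation, which draws misfolded proteins back to the cytosol for the proteasome, held 1 that fell in replated against fresh cells. DERL3, a derlin of the retrotranslocation machinery, was 5.42, 5.86 and 5.65 in fresh, 5.03, 4.86 and 5.49 in frozen and 5.15, 4.82 and 4.86 in replated cells. The probe is dim, detected on 3 fresh, 2 frozen and 1 replated array, so it passed the detection filter mainly through the state in which it is high. Its log2 difference of -0.70 ± 0.165 (adjusted p = 0.0425) depended on the background step, at -0.38 with an offset of 50 (adjusted p = 0.0123) and -1.55 with the authors' processed values (adjusted p = 0.108), so no fold is given. It was not called with those processed values, with a replicate block, or with no filter, where the difference was the same. Nor was it called when any 1 of the 6 arrays compared or frozen replicate 1 was left out. Its relatives DERL1 and DERL2 differed by 0.01 and -0.27 between replated and fresh cells and were not called.

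SYVN1, the ubiquitin ligase HRD1, was called among the 3 states (F test, adjusted p = 0.0489) and in no single comparison. It measured 9.02, 8.84 and 9.06 in fresh, 8.70, 8.62 and 8.62 in frozen and 8.77, 8.88 and 8.86 in replated cells. The frozen arrays were the lowest, by -0.33 ± 0.0766 from fresh cells (adjusted p = 0.0756), and this difference was called with another background offset, with no background correction, with a stricter detection filter, with median centring over all probes and with a trended prior. EDEM1, which extracts misfolded glycoproteins, differed by -0.28 between frozen and fresh and 0.40 between replated and frozen cells (adjusted p = 0.308 and 0.0762). EDEM2, SEL1L, the partner of HRD1, SELENOS and VCP, the ATPase that pulls substrates out of the membrane, differed by -0.13 to -0.04 between replated and fresh cells. HERPUD1, a component of the same ligase complex, had no named probe here.

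Of the 6 tested translocon genes, 1 differed. SEC63, a J protein of the translocon that recruits BiP to incoming chains, measured 7.46, 6.79 and 6.76 in fresh, 6.29, 6.39 and 6.22 in frozen and 6.82, 6.92 and 6.97 in replated cells. Frozen arrays lay below all others, and fresh replicate 1 lay above all others. SEC63 was 1.52-fold higher in replated than in frozen cells (0.60 ± 0.157, adjusted p = 0.0341), a call not made when any 1 of the 6 arrays compared was left out, with the authors' processed values or with no filter. The difference between frozen and fresh cells was as wide, at -0.70, and did not pass (adjusted p = 0.0671). SEC61A1 and SEC61B, the pore and a small subunit of the channel, differed by -0.12 and 0.06 between replated and fresh cells, and the translocon-associated proteins SSR1, SSR2 and SSR3 by -0.02, -0.05 and -0.07, with adjusted p from 0.516 to 0.919.

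Summed up by role, the arrays gave these medians, on which no test was run. The median deviation of the 8 chaperones from each gene's mean over 9 arrays was 0.06, 0.09 and 0.16 on the fresh, 0.11, 0.10 and 0.09 on the frozen and -0.15, -0.21 and -0.17 on the replated arrays. That of the 4 J proteins was 0.11, 0.08 and 0.04, then 0.15, 0.18 and 0.13, then -0.16, -0.21 and -0.16. For the 6 translocon genes it was 0.04, 0.06 and 0.01, then -0.12, 0.04 and -0.08, then 0.05, 0.00 and -0.02, and the states overlapped. All tested genes together stayed between -0.01 and 0.01 on every array. Quantile normalization gives all arrays the same distribution and so holds this median near 0 in advance. The spread of the members between replicates was like that of other genes, with a median SD of 0.0835, 0.0683 and 0.0753 in fresh, frozen and replated cells against 0.0897, 0.0905 and 0.0872 over all genes.

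**Figure D3:**
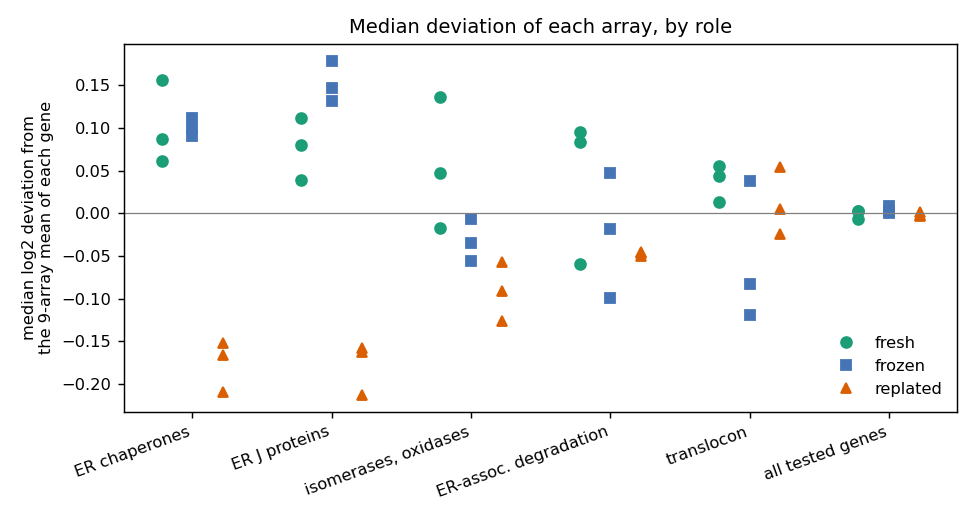
Median log2 deviation of each array from the 9-array mean of each gene, for 5 roles and for all tested genes; circles are fresh, squares frozen and triangles replated arrays. Chaperones and J proteins have all 3 replated arrays at or below -0.15. Isomerases and oxidases have their replated arrays lowest by a narrow margin, and degradation and translocon genes overlap between states. All tested genes lie near 0, where quantile normalization holds them.

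For 10 members a further probe was kept. The other HYOU1 probe also fell, 1.26-fold against fresh (-0.33, adjusted p = 0.0425) and 1.25-fold against frozen cells (-0.33, adjusted p = 0.0233). On that probe the frozen and fresh arrays overlapped, unlike on the brighter one, with a difference of -0.0036. The other SEC63 probe was higher in replated than in frozen cells too, by 0.40 (adjusted p = 0.0371). CANX probes differed from each other: in frozen minus fresh cells the brighter probe differed by -0.02 and the other by 0.17 (adjusted p = 0.183), with the latter at 12.25, 12.26 and 12.25 in fresh and 12.46, 12.42 and 12.40 in frozen cells. The other XBP1 probe differed by -0.09 between replated and fresh cells (adjusted p = 0.513). ERO1B differed by 0.10 on its brighter and -0.33 on its other probe between replated and fresh cells, neither called. DERL2 differed by -0.27 and -0.01 in the same way. DNAJC10 differed by -0.22 on its brighter and 0.19 on its other probe between frozen and fresh cells. The other kept probes of CANX, XBP1, ERO1B, DERL2, DNAJC10, SELENOS, SSR2 and SYVN1 were called in no comparison. Whether the probes of a gene read different transcripts was not tested.

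**Figure D4:**
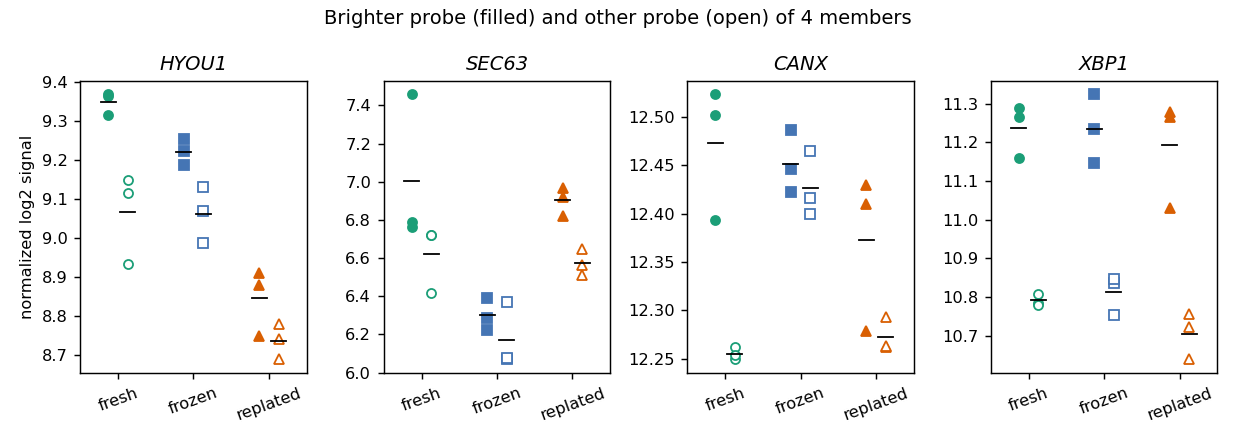
Normalized log2 signal on each array for the brighter probe (filled) and the other probe (open) of HYOU1, SEC63, CANX and XBP1, by state, with short lines at the means of 3 arrays; each panel has its own log2 axis. Both HYOU1 probes are lowest in replated cells and both SEC63 probes lowest in frozen cells.

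Read by the 2 forms of the element, of which 8 stretches are printed above and those of CANX, ERO1B and HERPUD1 are not, 10 tested members held either form and 23 had a promoter in the table without them. In replated against fresh cells 4 of the 10 fell, with a median difference of -0.20, and 2 of the 23 fell, with a median of -0.10. In replated against frozen cells 5 of the 10 and 3 of the 23 fell, with medians of -0.17 and -0.07. Of all 8974 tested genes with a promoter in the table, 177 were called lower against fresh and 491 against frozen cells. CALR, CANX, ERO1B and XBP1 held the element and were not called, and DNAJB11, DNAJC3 and MANF were called lower in a comparison with neither form within this window. The difference between these groups of members was not tested. All ER chaperones except MANF held either form, so the split by element largely follows the split by role. The 16 tested genes with either form outside the members had a median of 0.02 in replated against fresh cells.

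Other genes of the secretory pathway come from lists chosen by role. Their counts stand beside shares over all tested genes of 2.44% higher and 2.15% lower in replated against fresh cells. In replated against frozen cells these shares were 6.60% and 5.50%, and in frozen against fresh cells 0.467% and 0.485%. Of 26 tested genes of ER folding and glycoprotein quality control, 0 were called in frozen or replated against fresh cells (median -0.06 in the latter); in replated against frozen cells TXNDC11, a thioredoxin-domain protein, and SIL1, an exchange factor of BiP, were lower by 1.22- and 1.17-fold, and SERP1, which stabilizes membrane proteins at the translocon, was higher by 1.32-fold. Of 34 genes of translocation, signal peptidase and oligosaccharyltransferase, 0 were called against fresh cells, and SRPRB, SPCS3 and OSTC were lower in replated than in frozen cells, by 1.23-, 1.20- and 1.18-fold. Among 28 further degradation genes FAF1, a VCP adaptor, fell 1.32-fold in replated against fresh cells (adjusted p = 0.0117). Against frozen cells 2 of these 28 were higher and 3 lower, led by the ubiquitin ligase MARCHF6 (1.43-fold higher), ERLIN1 (1.36-fold higher), RAD23B (1.30-fold lower) and FAF1 (1.24-fold lower).

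The list of further signalling genes had 23 tested, and the shares over all genes given above stand beside its counts and those that follow. PPP1R15A, whose product ends the PERK branch by directing dephosphorylation of eIF2 alpha, was 2.36-fold higher in frozen than in fresh cells (adjusted p = 2.86e-05) and 2.64-fold lower in replated than in frozen cells (adjusted p = 4.59e-06). In the latter comparison 2 of the 23 were higher and 4 lower, among them BAK1, a mediator of apoptosis (1.38-fold higher), KDELR3, a receptor that returns ER residents (1.28-fold lower), and PPP1R15B (1.25-fold higher); 0 were called in replated against fresh cells. Of 30 COPII and early transport genes, SEC24D was 1.23-fold higher in replated than in frozen cells and 0 were called otherwise. As a comparison from another compartment, 12 mitochondrial chaperone and protease genes had HSPA9, the mitochondrial HSP70, lower by 1.27-fold in replated against fresh cells (adjusted p = 0.03). The median of these 12 was -0.09, and 11 of 12 lay below 0, against 50.35% of all genes.

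Summed marker signal was highest in replated cells. Each of the 12 monocytic markers with a named probe, of 14 listed, had a probe detected on all 9 arrays, and their summed linear signal was 27590 to 27920 in fresh, 27640 to 28600 in frozen and 30950 to 31520 in replated cells. Of these 12, 1 was called higher in replated than in fresh cells, against 2.44% of all genes. The median log2 difference was 0.04 and 4 of 12 lay below 0, against 50.35% of all genes. The called gene was LYZ, the gene of lysozyme, with the widest difference of the list at 1.81-fold (adjusted p = 6.99e-05). Of 17 markers of other cell types 16 had a probe and 5 were detected (CD79A, CD79B, MS4A1, NKG7 and PECAM1), with a sum of 1534 to 1564 in fresh, 1399 to 1526 in frozen and 1700 to 1882 in replated cells. The T cell genes CD3D and CD3E, the collagens COL1A1 and COL1A2, and DCN, EPCAM, KRT18, VWF, HBB, HBA1 and PPBP were detected on no array. CD79B and NKG7 were 1.30- and 1.41-fold higher in replated than in fresh cells. The part of these shifts in the lower chaperone levels was not tested. Detected probes ranged from 16898 to 17679 and mean raw signal from 299.6 to 367.1 over the 9 arrays. Mean raw signal overlapped between states. Detected probes numbered 16960 to 17278 on the replated arrays, below the 17322 to 17478 on the frozen arrays, and the fresh arrays overlapped both. The part of this difference in the calls was not tested.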

How the data were processed

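Per the labels' protocols, total RNA of THP-1 pellets was labelled as biotinylated cRNA. The authors deposited a linear intensity for each of 48803 probes on 9 arrays, not normalized per the file headers. The deposited detection score beside each signal is, per the file headers, a p value, but it rises with the signal of its array (0 falls), so 1 minus it was taken as the detection p. The authors' second table holds processed intensity, which its values show to be quantile-normalized. Scanner software: not given in the sources used here. Columns left unused numbered 0.

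Signal was normalized with limma 3.58.1 in R 4.3.3 (neqc: normexp with offset 16, quantile, log2), which understates changes of dim probes. Probes with a score above 0.95 on 3 or more arrays, 18102, were fitted together (lmFit, eBayes, 6 residual degrees of freedom), with Benjamini-Hochberg adjustment, and those under an adjusted p of 0.05 were called. Depth per probe is not counted on arrays, and their number limits the precision. Symbols came from the platform annotation (27578 probes with 1 symbol, 13 with several, 21212 not listed) updated through GRCh38.p14 gene IDs. Members, lists, the naming rule (all called members, 8 fixed regulators and chaperones, and up to 4 called genes per other list and comparison) and tests were chosen with earlier results of these data known. Protein sequences were not analysed here. The fit was tested on simulated data. Alternatives covered background, scaling, filter, block, prior, weights, threshold, arrays fitted and probe choice.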

Additional observations from a re-analysis of the deposited data

How the results depend on the processing

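The direction of the 16 calls of a member in a comparison was kept under each alternative that gave a value, and HYOU1 against fresh cells, and DNAJB11, DNAJC3 and MANF against frozen cells, were called under each of 20. Numbers of called members are given here in the order frozen against fresh, replated against fresh, replated against frozen, from main counts of 0, 7 and 9, where they moved by over 1.5 times. A background offset of 50, no background correction and a stricter detection filter each called 2 in the first (SEC63 and SYVN1). Median centring over all probes, which shifted the median of all genes by -0.11 in frozen against fresh cells, called 4, 4 and 5; centring on kept probes, added after seeing the data, called 0, 7 and 9. A trended prior called 3 in the first and 14 in the last, a threshold of 0.01 called 1 and 5 in the last 2, a threshold of 0.10 called 2 in the first, and gene means over probes called 1 in the first. The labels name no source that arrays of one number share, and their deviations correlated by -0.05 to 0.05 over 9 pairs; with the replicate block 3 members (DNAJC3, HYOU1 and SDF2L1) were called in replated against fresh cells. The F test called 10 members, but 5 with the authors' values, 18 with the trended prior and 4 at 0.01. Without 1 array, members called ranged from 0 to 0, 1 to 6 and 6 to 9, and 4 to 8 by the F test.

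Over all probes, 184, 747 and 2095 were called in the same order. Frozen against fresh cells gave 542 with offset 50, 565 with no background correction, 827 and 287 with the 2 centrings (70 higher and 757 lower, then 200 higher and 87 lower), 103 with the authors' values, 366 with the stricter filter, 104 with the replicate block, 826 with the trended prior, 40 and 582 at 0.01 and 0.10, and 69 with only the states compared. Replated against fresh cells gave 1333 with offset 50, 1305 without background correction, 468 with centring over all probes, 427 with the authors' values, 1199 with the stricter filter, 444 with the replicate block, 1526 with the trended prior, and 164 and 1459 at 0.01 and 0.10. Replated against frozen cells, with 1132 higher and 963 lower, gave 2028 higher and 369 lower with centring over all probes, 918 higher and 1479 lower with centring on kept probes, 3266 with the trended prior, and 613 and 3523 at 0.01 and 0.10. Without 1 array these counts ranged from 52 to 139, 245 to 696 and 1011 to 2028. Apart from thresholds and numbers of arrays or probes, the cause of these shifts was not tested. The files name no slide, so no slide block was run. Dim probes, DERL3 and PDIA3 among the members, lie near background and their differences are the least certain.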

Other observations

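Outside the members, 16 tested genes carried 1 of the 2 forms of the ER stress response element in the promoter window. Their median log2 difference was 0.01 in frozen against fresh, 0.02 in replated against fresh and -0.02 in replated against frozen cells. Of these 16, 0 were called in either comparison with fresh cells, and SERP1, described above, was the 1 called in replated against frozen cells. Among all 8974 tested genes with a promoter in the table, 177 were called lower and 208 higher in replated against fresh cells. In replated against frozen cells 491 were called lower and 592 higher.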
